A study of Mus musculus with 9 samples.

Results

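The comparison described here set mouse macrophages cultured for 48 h on a tantalum-containing metallic glass against the same kind of cells cultured on titanium. The glass was the alloy Zr58Cu25Al14Ta3 (here Ta3) and the titanium was cp Ti (cpTi), and each surface had 3 RNA-seq libraries. A further 3 libraries came from macrophages on a glass without tantalum, Zr61Cu25Al14 (Ta0), and shared the model. All cells were primary macrophages of WT genotype, grown from bone marrow, and no library analysed here came from another surface or from cells before plating. Whether a difference is a fall on Ta3 or a rise on cpTi can therefore not be told apart. A gene entered the comparison with at least 1 FPKM (fragments per kilobase of gene, scaled by library) in at least 3 of the 9 libraries. This rule used no material, and 10858 of 54532 genes in the table met it.

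Macrophages sense microbes, debris and foreign surfaces through receptors of several families, among them the Toll-like receptors, the C-type lectins and the formyl peptide receptors. Of these, the Toll-like receptors signal largely through the transcription factor NF-kB, which switches on chemokines and cytokines together with its own inhibitors. The Toll-like receptors also act through interferon regulatory factors, which switch on interferon and, through it, a large set of antiviral genes. Macrophages on an implant are known to take part in the foreign body response, in which their mediators recruit neutrophils and act on bone and fibrous tissue.

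The libraries held between 15517877 and 18689963 reads, as rebuilt from FPKM and gene length. The labels do not say whether the libraries came from separate animals or cultures, so a p-value here measures only the spread between libraries. Apart from the material, the libraries differed along a strong common axis: the leading principal component held 71.2% of the variance. The share of reads in 83 ribosomal protein genes was 9.75%, 2.22% and 16.9% in the Ta3 libraries, against 5.25%, 7.48% and 3.64% in the cpTi libraries, and the groups overlapped (exact permutation test, two-sided p = 0.5). Ta3 library 3 and Ta0 library 1 stood apart, with 13466 and 15678 genes above 0, against 18156 to 20635 in the other 7. Which deposited columns belong to which glass was read from the alloys' composition, and with a reversed reading Ta3 and Ta0 would change places. All 16 macrophage markers were tested and none was called. Csf1r, the receptor for the macrophage growth factor, stood at 78.9, 115 and 53.1 FPKM on Ta3 and 105, 99.8 and 145 FPKM on cpTi. Of 10 neutrophil markers, Ly6g was at 0 in all 9 libraries. The sum of the 10 was not, and ranged from 13.5 FPKM in Ta3 library 2 to 442 FPKM in Ta0 library 1.

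Few genes passed the test between macrophages on Ta3 and on cpTi, and nearly all of these were lower on Ta3. Of the 10858 genes, 52 (0.479%) were called, 49 lower on Ta3 (0.451%) and 3 higher (0.0276%). Among the 49, 7 passed the expression filter through the cpTi libraries alone, so a difference was a condition of their being tested. The fallen genes were led by the neutrophil-attracting chemokines Cxcl2 and Cxcl3, the cytokines Il1b and Tnf, the itaconate enzyme gene Acod1, the prostaglandin E synthase gene Ptges and the formyl peptide receptors Fpr1 and Fpr2. The 3 genes that rose were Cdkn1c, Lsp1 and Cd5l. A call is an adjusted p under 0.05 in limma's moderated test on log2(FPKM + 1), with Benjamini-Hochberg adjustment over all tested genes, and every adjusted p below comes from that fit. Adding 1 before the logarithm understates the change of genes with low values.

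Falls outnumbered rises among the calls. The median log2 fold change (Ta3 minus cpTi) of all tested genes was 0.02, and 47.3% of genes lay below 0. In every library the read scale behind FPKM lay within 3.3% of a size factor taken from the median ratio of reads. Such scaling sets the typical change near 0, so these values cannot show whether the typical gene moved. A total of 156 genes had a log2 fold change under -1 and 110 had one over 1, and 43 and 3 of these were called. The Ta3 and cpTi libraries did not overlap in any of the 52 called genes, against a background of 892 tested genes (8.22%) with every Ta3 library below every cpTi library and 377 (3.47%) with every Ta3 library above. Called genes, which the test favours where libraries are alike, varied less within Ta3 than genes in general, with a median SD of 0.21 (log2) against 0.41 over all tested genes, while the corresponding values within cpTi were 0.20 and 0.25. Rescaling the libraries to a common FPKM total shifted the median of all genes to -0.09. Under that scaling and in the other alternatives the called genes kept their direction wherever they were tested (30 of the 52 with a filter at a mean of 5 FPKM, all 52 otherwise), but many lost the call, and 44 of the 52 lost it without cpTi library 1, where 8 genes were called and all were lower on Ta3.

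**Figure D1:**
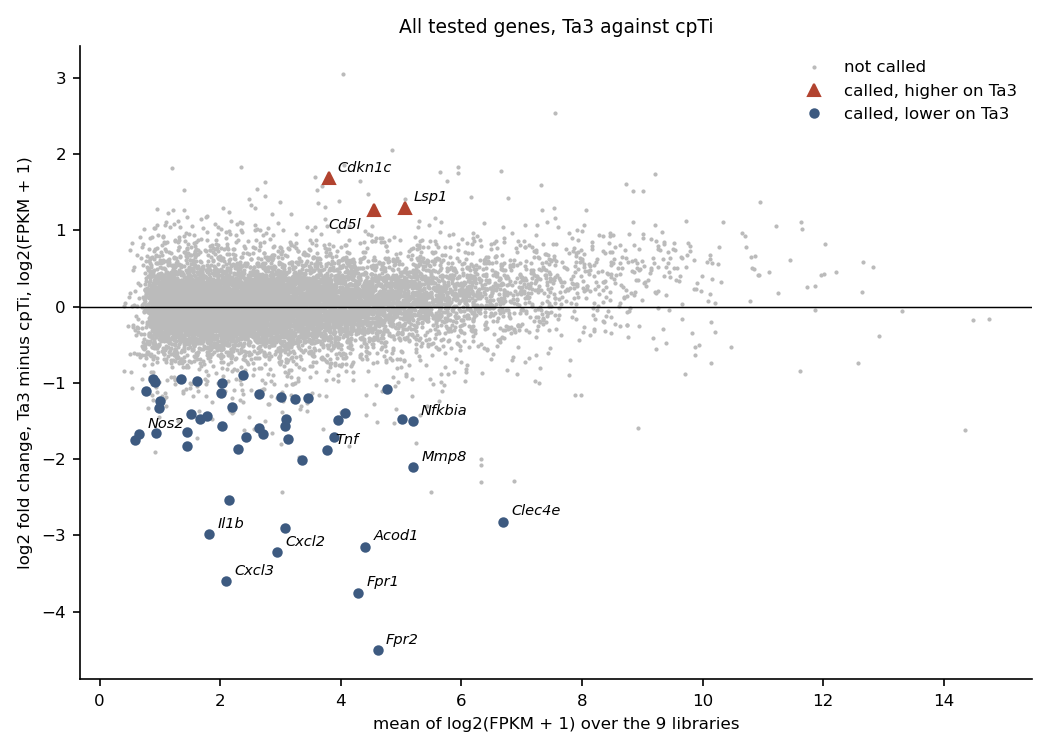
Log2 fold change (Ta3 minus cpTi, vertical axis) of each tested gene against its mean log2(FPKM + 1) over the 9 libraries (horizontal axis). Grey points are genes not called; the 49 blue circles lie below 0, down to -4.51 for Fpr2, and the 3 red triangles are Cdkn1c, Lsp1 and Cd5l.

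Of the CXC chemokines that draw neutrophils, Cxcl2 and Cxcl3 fell. Cxcl2, a ligand of the neutrophil receptor Cxcr2, stood at 2.49, 1.73 and 3.41 FPKM in the Ta3 libraries, against 33.3, 36.2 and 25.3 FPKM in the cpTi libraries. Every Ta3 library lay far below the lowest cpTi library, and the log2 fold change was -3.21 (SE 0.24, adjusted p = 0.00187). Cxcl3, which lies near it on chromosome 5 and acts on the same receptor, had 0.82, 0.451 and 1.93 FPKM on Ta3 and 23.5, 30.2 and 16.9 FPKM on cpTi. That gap was the widest of the family, at -3.60 on the log2 scale (SE 0.30, adjusted p = 0.00252). Cxcl13, which attracts B cells, also fell, to 0.706, 0.927 and 0 FPKM on Ta3, against 5.14, 5.01 and 3.02 FPKM on cpTi (log2 fold change -1.83, adjusted p = 0.0363).

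Other neutrophil-attracting members were not called. Cxcl1, whose groups did not overlap, had 4.62, 2.65 and 7.58 FPKM on Ta3 and 23.4, 28.2 and 13.8 FPKM on cpTi (log2 fold change -1.97, adjusted p = 0.104), and Cxcl5, whose groups overlapped, had 6.3, 3.08 and 10.4 FPKM on Ta3 and 14.5, 14.6 and 8.43 FPKM on cpTi (log2 fold change -0.91, adjusted p = 0.67). In all, 3 of 9 tested CXC chemokines fell and none rose. Their median log2 fold change was -1.33, against 0.02 over all tested genes, and it was the value of Ppbp, a platelet chemokine that passed the expression filter through the cpTi libraries alone. Without Ppbp the median of the other 8 was -1.47. None of 10 tested CC chemokines, which mainly draw monocytes and lymphocytes, was called. Their median was -0.33 and turned to 0.21 without Ta3 library 2. The calls on Cxcl2 and Cxcl3 held with any of the 9 libraries left out, whereas Cxcl13 passed in 2 of these 9 refits and reached an adjusted p of 0.227 without cpTi library 1.

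Among cytokines, the pyrogenic mediators Il1b and Tnf fell. Il1b, which encodes interleukin 1 beta, measured 0.936, 0.292 and 0.697 FPKM on Ta3, against 13, 15 and 8.3 FPKM on cpTi. The highest Ta3 library held less than the lowest cpTi library, and the log2 fold change was -2.98 (SE 0.24, adjusted p = 0.00233). Tnf, the gene of tumour necrosis factor, measured 6.14, 7.83 and 7.99 FPKM on Ta3, against 30.6, 33.6 and 24.8 FPKM on cpTi. Its 3 Ta3 libraries lay close together, and the log2 fold change was -1.88 (SE 0.18, adjusted p = 0.0044). Csf3, which encodes the granulocyte growth factor G-CSF, was low throughout but fell as well, to 0.306, 0.394 and 0.796 FPKM on Ta3, against 3.28, 2.49 and 1.87 FPKM on cpTi (log2 fold change -1.24, adjusted p = 0.0439). Csf3 entered the comparison through the cpTi libraries alone, so a difference was a condition of its being tested.

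Of 10 tested inflammatory cytokines, 3 fell, none rose and the median log2 fold change was -0.72, or -0.68 without Csf3. Il1a, which signals through the same receptor as Il1b, just missed the threshold with a log2 fold change of -1.42 (adjusted p = 0.0528). Il18, a cytokine that is stored as a precursor, had 0.21 (adjusted p = 0.972), and Csf1, the macrophage growth factor, had 0.15 (adjusted p = 0.962). Il6 and Il10 did not reach the expression filter: Il6 was at most 0.134 FPKM on Ta3 and 0.899 FPKM on cpTi, and Il10 reached 3.59 FPKM in Ta3 library 3, against at most 0.324 FPKM on cpTi. The call on Il1b held with each library left out, Tnf missed the threshold without cpTi library 1 (adjusted p = 0.0534), and Csf3 passed in 1 of 9 refits with a highest adjusted p of 0.264, without cpTi library 1.

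**Figure D2:**
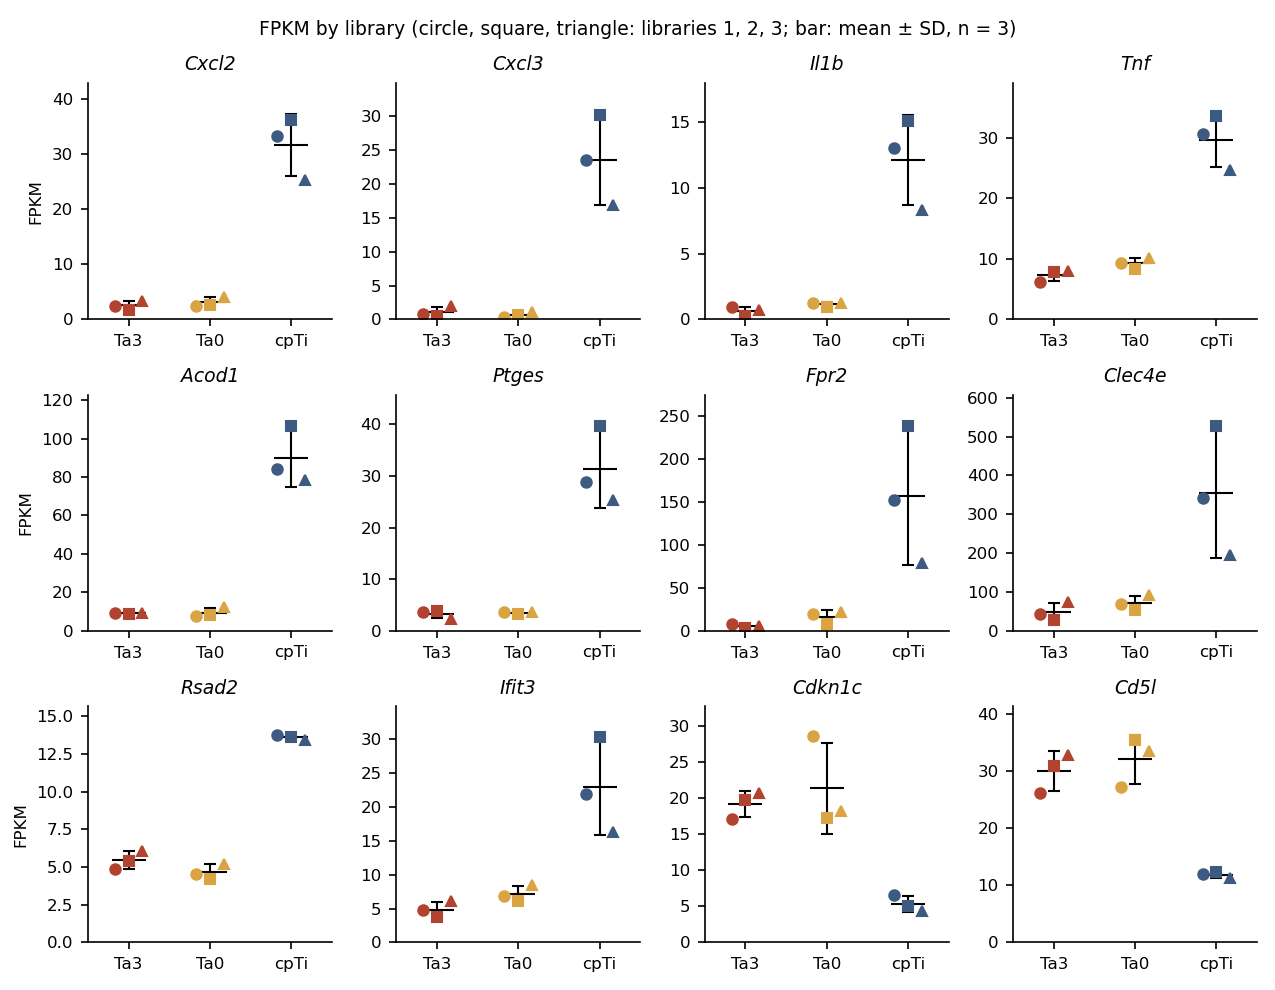
FPKM (vertical axes, each from 0) of 12 called genes in each library of Ta3, Ta0 and cpTi. Circles, squares and triangles are libraries 1, 2 and 3, and black bars give the mean ± SD (n = 3). For the first 10 genes all Ta3 libraries lie below all cpTi libraries, and for Cdkn1c and Cd5l all lie above.

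Promoters are printed for up to 6 called genes of the chemokine, cytokine and interferon lists, in order of adjusted p. The first 4 were Cxcl2, Il1b, Cxcl3 and Tnf. The sequences are RefSeq's for build GRCm38.p6, in the direction of transcription, with the annotated start 50 bases before the end of each. Capitals mark 2 motifs searched on either strand, the core of a kappa B site (GGGANTTTC) and the TATA box (TATAAA).
Cxcl2 promoter, chr5:90903649-90903948, plus strand: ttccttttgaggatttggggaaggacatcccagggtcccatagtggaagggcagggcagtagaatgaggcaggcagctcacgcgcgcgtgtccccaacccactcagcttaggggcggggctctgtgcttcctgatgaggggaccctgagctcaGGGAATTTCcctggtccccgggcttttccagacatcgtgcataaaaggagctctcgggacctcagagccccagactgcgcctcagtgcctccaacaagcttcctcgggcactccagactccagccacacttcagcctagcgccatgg
Cxcl3 promoter, chr5:90785851-90786150, plus strand: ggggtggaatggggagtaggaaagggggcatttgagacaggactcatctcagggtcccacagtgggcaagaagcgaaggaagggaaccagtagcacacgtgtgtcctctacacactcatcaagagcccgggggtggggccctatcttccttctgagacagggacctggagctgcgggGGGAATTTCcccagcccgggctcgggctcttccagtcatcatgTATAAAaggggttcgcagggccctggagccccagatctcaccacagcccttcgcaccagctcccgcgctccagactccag
Il1b promoter, chr2:129371090-129371389, minus strand: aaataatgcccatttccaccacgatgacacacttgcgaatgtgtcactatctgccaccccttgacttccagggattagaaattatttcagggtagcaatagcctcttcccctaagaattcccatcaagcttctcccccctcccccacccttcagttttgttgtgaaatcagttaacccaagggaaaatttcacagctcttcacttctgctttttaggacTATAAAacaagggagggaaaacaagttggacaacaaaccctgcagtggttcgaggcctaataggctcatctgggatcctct
Tnf promoter, chr17:35201958-35202257, minus strand: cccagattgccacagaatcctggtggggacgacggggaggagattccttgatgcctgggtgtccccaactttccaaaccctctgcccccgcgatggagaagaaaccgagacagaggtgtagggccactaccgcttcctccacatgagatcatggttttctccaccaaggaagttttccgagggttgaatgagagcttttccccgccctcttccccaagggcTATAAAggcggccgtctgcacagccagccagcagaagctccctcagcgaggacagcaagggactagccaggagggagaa

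The kappa B core began 97 bases before the start of Cxcl2 and 73 before that of Cxcl3, with the same 9 letters in each. A TATA box lay about 30 bases before the start of Cxcl3, Il1b and Tnf, at 30, 31 and 29 bases. In this window the kappa B core occurred in 3 of 42 called genes with a promoter in the table (Cxcl2, Cxcl3 and Nfkbia) and in 91 of 7870 tested genes (1.16%), and the TATA box in 16 of 42 and in 659 of 7870 (8.37%). Over all 32851 promoters of the table the shares were 1.11% and 13.6%. A match is a run of letters and does not show that a factor binds there.

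The enzyme genes Acod1, Nos2 and Ptges fell as well. Acod1, which makes the antimicrobial metabolite itaconate from an intermediate of the citric acid cycle, measured 9.45, 8.87 and 9.17 FPKM on Ta3, against 84, 107 and 78.6 FPKM on cpTi. The Ta3 libraries were nearly equal, and the mean was 9.8 times lower on Ta3 (log2 fold change -3.15, SE 0.21, adjusted p = 0.00187). Nos2, the inducible nitric oxide synthase, stood at 0.11, 0.0525 and 0 FPKM on Ta3, against 2.31, 2.2 and 2.58 FPKM on cpTi. It was close to 0 in all Ta3 libraries, and its log2 fold change of -1.67 (adjusted p = 0.00252) sits beside a ratio of mean FPKM of 43.5, since 1 was added before the logarithm. Nos2 passed the expression filter through the cpTi libraries alone. Ptges, the inducible synthase of prostaglandin E2, measured 3.74, 3.81 and 2.39 FPKM on Ta3, against 28.7, 39.7 and 25.4 FPKM on cpTi, again without overlap (log2 fold change -2.90, SE 0.21, adjusted p = 0.00187).

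Most other members of their pathways were not called. Of 9 genes of nitric oxide, arginine and itaconate metabolism 2 fell, Acod1 and Nos2, with a median log2 fold change of -1.10, or -0.69 without Nos2. Arg1, the arginase that competes with Nos2 for arginine, varied widely at 395, 117 and 372 FPKM on Ta3 and 854, 1107 and 504 FPKM on cpTi and was not called (log2 fold change -1.59, adjusted p = 0.51). Among 15 genes of prostaglandin and leukotriene synthesis only Ptges was called, and the median was -0.04. Ptgs2, the inducible cyclooxygenase that works ahead of Ptges, passed the filter through cpTi alone and had -0.67 (adjusted p = 0.291), and Ptgs1 had -0.07 (adjusted p = 0.987). The calls on Acod1, Nos2 and Ptges held with each of the 9 libraries left out, and together with Cxcl2, Cxcl3, Il1b, Smpdl3b and Inhba they made up the 8 genes of the 52 for which that was so. For Nos2, which entered through cpTi alone, a difference was a condition of its being tested.

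Receptors for microbial and damage signals included the greatest falls of the comparison on the scale of log2(FPKM + 1). By the ratio of mean FPKM, Nos2 (43.5) lay ahead of Fpr2 (28.1). Fpr2, a receptor for formylated peptides of bacteria and mitochondria, measured 7.77, 3.29 and 5.68 FPKM on Ta3, against 152, 239 and 79.1 FPKM on cpTi. The adjacent gene on chromosome 17, Fpr1, with the same class of ligands, measured 5.68, 2.94 and 10.7 FPKM on Ta3, against 93.7, 139 and 55.4 FPKM on cpTi. Both genes spread widely within cpTi, with library 2 highest and library 3 lowest, yet the groups were far apart: the log2 fold changes were -4.51 (SE 0.50, adjusted p = 0.0118) and -3.75 (SE 0.46, adjusted p = 0.018). Clec4e, the C-type lectin Mincle that senses mycobacterial glycolipid and dying cells, measured 43.1, 29.3 and 74.8 FPKM on Ta3, against 343, 528 and 195 FPKM on cpTi. It showed the same order of cpTi libraries and a log2 fold change of -2.82 (SE 0.46, adjusted p = 0.0461).

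Tlr2, the Toll-like receptor for bacterial lipoproteins, fell to 7.83, 11.3 and 14.5 FPKM on Ta3, against 30.7, 32.5 and 34.1 FPKM on cpTi (log2 fold change -1.49, adjusted p = 0.0359). Irak3, an inhibitor of Toll-like receptor signalling, fell too, to 6.59, 7.5 and 5.65 FPKM on Ta3, against 15.2, 15.9 and 18.3 FPKM on cpTi (log2 fold change -1.21, adjusted p = 0.0393). In all, 5 of 26 pattern recognition genes fell, none rose, and the median was -0.46. All Ta3 libraries lay below all cpTi libraries in 13 of the 26, against 8.22% of all tested genes. Tlr4, the receptor for endotoxin, had a log2 fold change of -0.69 (adjusted p = 0.342), and Clec4n, the lectin Dectin-2, had -2.43 (adjusted p = 0.206), both without overlap. Without cpTi library 1 the adjusted p was 0.0889 for Fpr2, 0.124 for Fpr1, 0.264 for Clec4e, 0.209 for Tlr2 and 0.227 for Irak3. The calls on both formyl peptide receptors were also lost without Ta3 library 1 or cpTi library 2, and Clec4e, Tlr2 and Irak3 each passed in 1 of 9 refits.

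Several further surface receptors of myeloid cells fell. Pilra, an inhibitory receptor with an immunoglobulin-like domain, measured 4.06, 3 and 6.06 FPKM on Ta3, against 17.2, 18.2 and 14.2 FPKM on cpTi (log2 fold change -1.74, adjusted p = 0.0201). Clec4a1, a lectin of the same family as Clec4e, measured 20.1, 27.6 and 20.2 FPKM on Ta3, against 57.9, 75.1 and 59.9 FPKM on cpTi (log2 fold change -1.47, adjusted p = 0.0363). Tarm1, an activating receptor of myeloid cells, and Adgre4, a relative of the macrophage antigen F4/80, were low everywhere and passed the filter through cpTi alone, with log2 fold changes of -1.65 and -1.33 (adjusted p = 0.0359 and 0.0363). H2-M2, a non-classical MHC class I molecule, measured 0.872, 0.956 and 3.17 FPKM on Ta3, against 14, 21.8 and 7.62 FPKM on cpTi, with Ta3 library 3 the highest of its group (log2 fold change -2.53, adjusted p = 0.0435). By contrast none of 18 listed genes of MHC class I presentation and the immunoproteasome and none of 13 of MHC class II and costimulation was called, with medians of -0.22 and -0.03. Pilra held in 3, H2-M2 in 2, Clec4a1 and Adgre4 in 1 and Tarm1 in none of the 9 refits with a library left out, and the highest adjusted p were 0.148, 0.254, 0.209, 0.232 and 0.156, the last without cpTi library 2 and the others without cpTi library 1.

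Mmp8, a collagenase best known from neutrophil granules, measured 20.4, 17.5 and 19.7 FPKM on Ta3, against 86, 99.8 and 73.9 FPKM on cpTi. The groups were tight and did not overlap (log2 fold change -2.11, SE 0.23, adjusted p = 0.0101). Formyl peptide receptors, Clec4e and Mmp8 are also genes of neutrophils, so markers of that cell type were summed. The 10 neutrophil markers came to 138, 13.5 and 429 FPKM on Ta3 and 130, 293 and 72.6 FPKM on cpTi, and these groups overlapped. The 3 of them that were tested were not called, nor was any other of 12 granule and S100 genes than Mmp8 (median 0.02). In RNA of a whole culture, fewer cells of a type and less RNA per cell cannot be told apart. Mmp8 lost its call without Ta3 library 1, cpTi library 2 or cpTi library 1, with a highest adjusted p of 0.0889 in the last case.

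In the NF-kB pathway the called gene was an inhibitor. Nfkbia, which encodes I-kappa-B-alpha and is itself an NF-kB target, measured 25.5, 27.3 and 18 FPKM on Ta3, against 70.3, 83.5 and 52.7 FPKM on cpTi (log2 fold change -1.50, SE 0.24, adjusted p = 0.0463). It was the single call among 28 tested genes of the pathway and its feedback, none rose, and the median was -0.36. All Ta3 libraries lay below all cpTi libraries in 13 of the 28, against 8.22% of all tested genes. The nearest others were Birc3, an inhibitor of apoptosis (log2 fold change -1.27, adjusted p = 0.064), and Nfkbie, another I-kappa-B (log2 fold change -0.96, adjusted p = 0.0851). The subunits Rela and Nfkb1 had 0.09 and -0.26 (adjusted p = 0.972 and 0.949). The call on Nfkbia was lost in all 9 refits with a library left out, with an adjusted p of up to 0.293 without cpTi library 1.

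Some interferon-stimulated genes fell, among them Ifit3, Ifit2, Rsad2 and Cmpk2. Ifit3, an antiviral protein with tetratricopeptide repeats, measured 4.81, 3.69 and 6.04 FPKM on Ta3, against 22, 30.4 and 16.3 FPKM on cpTi (log2 fold change -2.01, SE 0.25, adjusted p = 0.0201). Ifit2, its neighbour on chromosome 19 and of the same family, measured 3.29, 3.73 and 2.81 FPKM on Ta3, against 12.6, 11.3 and 11.7 FPKM on cpTi (log2 fold change -1.60, SE 0.20, adjusted p = 0.0201). In both genes every Ta3 library was below every cpTi library. Rsad2, which encodes the antiviral enzyme viperin, measured 4.89, 5.38 and 6.06 FPKM on Ta3, against 13.8, 13.6 and 13.4 FPKM on cpTi, where the 3 libraries were almost equal (log2 fold change -1.18, SE 0.14, adjusted p = 0.0154). Cmpk2, a nucleotide kinase gene next to Rsad2 on chromosome 12, measured 2.31, 2.47 and 1.4 FPKM on Ta3, against 5.17, 6.22 and 5.51 FPKM on cpTi (log2 fold change -1.13, adjusted p = 0.0461).

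These 4 were the calls among 31 tested genes of the type I interferon response, and none rose. Ifit3b passed the filter through cpTi alone. Of the other 30, the called ones included, 22 had all Ta3 libraries below all cpTi libraries, 29 had a negative log2 fold change, and the median was -0.88. Over all tested genes the 2 shares were 8.22% and 47.3%. Usp18, a negative regulator of interferon signalling, came closest to the threshold among the rest (log2 fold change -1.09, adjusted p = 0.0555), and Isg15, a ubiquitin-like modifier, was far from it (log2 fold change -0.99, adjusted p = 0.921). Of the regulators, none of 18 interferon regulatory factors, STATs and kinases was called. Irf7, the factor that amplifies interferon production, measured 20.5, 22.9 and 19.4 FPKM on Ta3, against 54.7, 71.2 and 41.1 FPKM on cpTi, without overlap (log2 fold change -1.34, adjusted p = 0.0566). Irf9, which binds interferon-response elements together with STATs, had a log2 fold change of -0.73 (adjusted p = 0.111).

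Of the guanylate-binding proteins, interferon-induced GTPases that attack the vacuoles of intracellular microbes, Gbp3 and Gbp7 fell. Gbp3 measured 2.24, 1.87 and 1.28 FPKM on Ta3, against 6.73, 9.34 and 5.81 FPKM on cpTi (log2 fold change -1.56, adjusted p = 0.0435), and its neighbour on chromosome 3, Gbp7, had 1.2, 1.08 and 0.966 FPKM, against 3.3, 2.65 and 3.13 FPKM on cpTi (log2 fold change -0.95, adjusted p = 0.0393). They were 2 of 9 tested members of a list that also held the immunity-related GTPases. Gbp6 passed the filter through cpTi alone. The other 8 had negative log2 fold changes, with no overlap of the groups in 7 and a median of -1.09. Of all tested genes, 47.3% were below 0 and 8.22% had every Ta3 library below every cpTi library. Slfn1, a schlafen family gene, measured 3.63, 3.33 and 1.7 FPKM on Ta3, against 11.3, 11 and 10.9 FPKM on cpTi (log2 fold change -1.67, adjusted p = 0.0378). Ifi206 of the DNA-sensing PYHIN family, Trim30c of the tripartite motif family and Gm12250, listed as a processed pseudogene, fell with log2 fold changes of -1.10, -0.99 and -1.56 (adjusted p = 0.0435, 0.0491 and 0.035). The Ifit, Gbp, PYHIN, Trim30 and Clec4 genes have close relatives, and how reads shared with them were counted is not given, so the split between relatives is uncertain.

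The interferon group rested on fewer stable calls than the chemokines and cytokines. With a library left out, Rsad2 passed in 5 of 9 refits, Ifit3 in 4, Ifit2 in 3 and Gm12250 in 1. Gbp3, Gbp7, Cmpk2, Slfn1, Ifi206 and Trim30c passed in none. The highest adjusted p came without cpTi library 1, at 0.144 for Rsad2, 0.144 for Ifit3 and 0.148 for Ifit2, and Rsad2 also lost its call without Ta3 library 1, cpTi library 2 or cpTi library 3. Over those refits the median of all 31 lay between -0.99 and -0.86, and that of all 9 GTPases between -1.17 and -0.96.

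Rsad2 and Ifit3, which lie on different chromosomes, came next in the order of adjusted p, and their promoters are printed here. They are again RefSeq's for GRCm38.p6, with the annotated start 50 bases before the end. Capitals mark the core of the interferon-stimulated response element (GAAANNGAA, either strand) and the TATA box (TATAAA, either strand).
Rsad2 promoter, chr12:26456403-26456702, minus strand: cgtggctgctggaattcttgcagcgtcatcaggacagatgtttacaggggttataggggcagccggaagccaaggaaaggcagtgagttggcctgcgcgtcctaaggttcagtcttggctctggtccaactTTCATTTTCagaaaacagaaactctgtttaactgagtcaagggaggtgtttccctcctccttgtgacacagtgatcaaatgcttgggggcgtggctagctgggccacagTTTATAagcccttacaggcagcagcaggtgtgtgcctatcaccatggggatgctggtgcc
Ifit3 promoter, chr19:34583279-34583578, plus strand: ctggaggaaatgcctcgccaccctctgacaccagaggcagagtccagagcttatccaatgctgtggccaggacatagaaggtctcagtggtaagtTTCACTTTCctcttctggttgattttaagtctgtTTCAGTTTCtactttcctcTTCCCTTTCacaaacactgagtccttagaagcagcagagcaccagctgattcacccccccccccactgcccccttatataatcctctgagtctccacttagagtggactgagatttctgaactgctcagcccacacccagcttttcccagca

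Ifit3 held the element's core 3 times, 155, 121 and 102 bases before the start, and Rsad2 once, 119 bases before it, each time on the strand opposite to transcription. The core was not found in this window of the other 2 called genes of the list, Ifit2 (for either of its 2 annotated starts) and Cmpk2. The letters TATAAA also lay on the opposite strand of Rsad2, 10 bases before its start. The element's core was in the promoters of 11 of 42 called genes, namely Gbp3, Gbp7, Gm12250, Ifi206, Ifit3, Irak3, Nfkbia, Pilra, Rsad2, Tarm1 and Tgfbi, and in 698 of 7870 tested genes (8.87%). It was in 8.56% of all 32851 promoters.

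Smaller numbers of genes fell in other defence pathways. Mefv, which encodes the inflammasome sensor pyrin, measured 2.2, 1.8 and 2.17 FPKM on Ta3, against 4.96, 4.61 and 5.76 FPKM on cpTi (log2 fold change -1.0, adjusted p = 0.0363). It was the only call among 13 inflammasome and pyroptosis genes, whose median was -0.24. Nlrp3, the sensor that acts ahead of interleukin 1 beta release, had -0.98 (adjusted p = 0.559), and Casp1, the protease that cleaves that cytokine, had -0.31 (adjusted p = 0.958). Cfb, complement factor B of the alternative pathway, measured 1.65, 1.39 and 1.3 FPKM on Ta3, against 3.77, 4.12 and 3.55 FPKM on cpTi (log2 fold change -0.98, adjusted p = 0.0359), the only call among 17 complement genes (median -0.09). Smpdl3b, a membrane phosphodiesterase that dampens Toll-like receptor signalling, measured 1.78, 2.06 and 2.4 FPKM on Ta3, against 9.18, 12.9 and 8.9 FPKM on cpTi, without overlap (log2 fold change -1.87, SE 0.17, adjusted p = 0.00389). The Smpdl3b call held in all 9 refits with a library left out, and those on Mefv and Cfb in none (highest adjusted p 0.232 and 0.227, without cpTi library 1).

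In the fit behind the calls, genes for handling NAD, cystine, iron and zinc each gave a single fall. More of the NAD, antioxidant and iron genes fell under an alternative setting, given with the alternatives below. Cd38, a surface enzyme that consumes NAD, measured 7.8, 9.84 and 9.15 FPKM on Ta3, against 29, 30.3 and 34.7 FPKM on cpTi (log2 fold change -1.70, SE 0.23, adjusted p = 0.0289). It was the only call among 15 NAD genes (median -0.50), and Nampt, the rate-limiting enzyme of NAD salvage, had -0.89 (adjusted p = 0.207). Slc7a11, the cystine importer that feeds glutathione synthesis, measured 1.44, 1.67 and 0.955 FPKM on Ta3, against 5.11, 5.67 and 5.64 FPKM on cpTi (log2 fold change -1.47, SE 0.15, adjusted p = 0.0085). The other 28 tested targets of the antioxidant factor NRF2 and glutathione genes were not called. Hmox1, the haem-degrading enzyme of that group, had 202, 275 and 217 FPKM on Ta3 and 290.1, 382 and 273 FPKM on cpTi (adjusted p = 0.853).

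Slc25a37, the mitochondrial iron importer mitoferrin 1, measured 4.32, 4.83 and 3.26 FPKM on Ta3, against 10.7, 9.46 and 10.8 FPKM on cpTi (log2 fold change -1.15, adjusted p = 0.0363), and was the only call among 15 iron genes (median -0.29). Slc39a4, a zinc importer, measured 0.575, 0.612 and 0.494 FPKM on Ta3, against 2.07, 2.11 and 1.88 FPKM on cpTi, and passed the filter through cpTi alone (log2 fold change -0.95, adjusted p = 0.0371). The glass contains copper, and none of a list of 22 metallothionein, copper and zinc genes, which does not hold Slc39a4, was called. Mt1, a metallothionein that binds copper and zinc, ranged widely at 162, 102 and 341 FPKM on Ta3 and 110.1, 159.5 and 96.4 FPKM on cpTi (log2 fold change 0.57, 95% interval -0.73 to 1.88). Slc31a1, the copper importer, had 26.1, 23.9 and 25.1 FPKM on Ta3 and 48.3, 55.9 and 38.8 FPKM on cpTi without overlap (log2 fold change -0.89, adjusted p = 0.148). Slc7a11 held in 6, Cd38 in 2 and Slc25a37 and Slc39a4 in none of the 9 refits with a library left out. The highest adjusted p were 0.0696 for Slc7a11, 0.232 for Slc25a37 and 0.257 for Slc39a4 without cpTi library 1, and 0.153 for Cd38 without Ta3 library 1.

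Matrix and growth factor genes of the TGF-beta family and its targets gave 3 falls among 17 tested members, with no rise. Inhba, the subunit of activin A, measured 0.906, 0.878 and 0.784 FPKM on Ta3, against 4.71, 5.46 and 4.36 FPKM on cpTi, with tight groups (log2 fold change -1.65, SE 0.15, adjusted p = 0.00374). Tgfbi, a secreted matrix protein induced by TGF-beta, measured 11.8, 12.6 and 9.49 FPKM on Ta3, against 30.5, 27.3 and 36.5 FPKM on cpTi (log2 fold change -1.40, SE 0.17, adjusted p = 0.0197). Lox, which crosslinks collagen and elastin, measured 3.17, 3.92 and 1.47 FPKM on Ta3, against 10.9, 9.43 and 13.4 FPKM on cpTi (log2 fold change -1.71, SE 0.26, adjusted p = 0.0363). In Tgfbi and Lox the highest cpTi library was library 3, the lowest of its group in the formyl peptide receptors and Clec4e. The list's median was 0.12, and it turned to -0.08 without Ta3 library 2 and to -0.07 without cpTi library 2. With a common FPKM total it was -0.01, where the median of all genes was -0.09.

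Tgfb1 itself had 57.3, 89.5 and 33.5 FPKM on Ta3 and 34.5, 30.5 and 58.5 FPKM on cpTi, with overlap (adjusted p = 0.921). None of the 15 tested genes of the osteoclast list or the 13 of the secreted osteogenic and angiogenic list was called. Bmp2, a bone morphogenetic protein, had 1.81, 2.03 and 0 FPKM on Ta3 and 2.02, 1.48 and 3.06 FPKM on cpTi (adjusted p = 0.875). Osm, oncostatin M, had 2.43, 3.1 and 2.16 FPKM on Ta3 and 3.58, 4.43 and 4.08 FPKM on cpTi (adjusted p = 0.631). Vegfb, an angiogenic factor, came nearest to a rise among 13 secreted osteogenic and angiogenic genes, with 26.5, 37.9 and 30.1 FPKM on Ta3 and 13.4, 14.2 and 18 FPKM on cpTi (log2 fold change 1.0, adjusted p = 0.1). Inhba kept its call in all 9 refits with a library left out, Tgfbi in 3 and Lox in 2, and without cpTi library 1 the adjusted p of Tgfbi and Lox reached 0.145 and 0.227.

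The remaining fallen genes have diverse roles. Clmp, an adhesion protein of cell junctions, measured 5.03, 5.46 and 5.53 FPKM on Ta3, against 16.5, 20.4 and 13.3 FPKM on cpTi (log2 fold change -1.47, adjusted p = 0.0131). Marcksl1, an actin-binding relative of the MARCKS protein, was evenly measured, with 18.4, 21.2 and 21.8 FPKM on Ta3 and 42.3, 46.8 and 43.9 FPKM on cpTi (log2 fold change -1.08, adjusted p = 0.0361). Lpcat2, an enzyme that makes platelet-activating factor, had 5.77, 6.14 and 9.24 FPKM on Ta3 and 17.1, 19.2 and 15.5 FPKM on cpTi (log2 fold change -1.20, adjusted p = 0.0435). Filip1l, Acpp, Cdc42ep2 (an effector of the small GTPase Cdc42) and Ell2 (a transcription elongation factor) had log2 fold changes of -1.44, -1.40, -1.31 and -0.89 (adjusted p = 0.023, 0.0335, 0.0427 and 0.0435). Gm22121, listed as a miRNA gene, was at 0 in all Ta3 libraries and at 3.1, 1.12 and 3.38 FPKM in the cpTi libraries, and few reads lie behind such values. With a library left out, Clmp passed in 6 of 9 refits, Filip1l in 3, Acpp in 2, Lpcat2, Cdc42ep2 and Gm22121 in 1 and Marcksl1 and Ell2 in none, with highest adjusted p between 0.115 and 0.293, each without cpTi library 1.

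**Figure D3:**
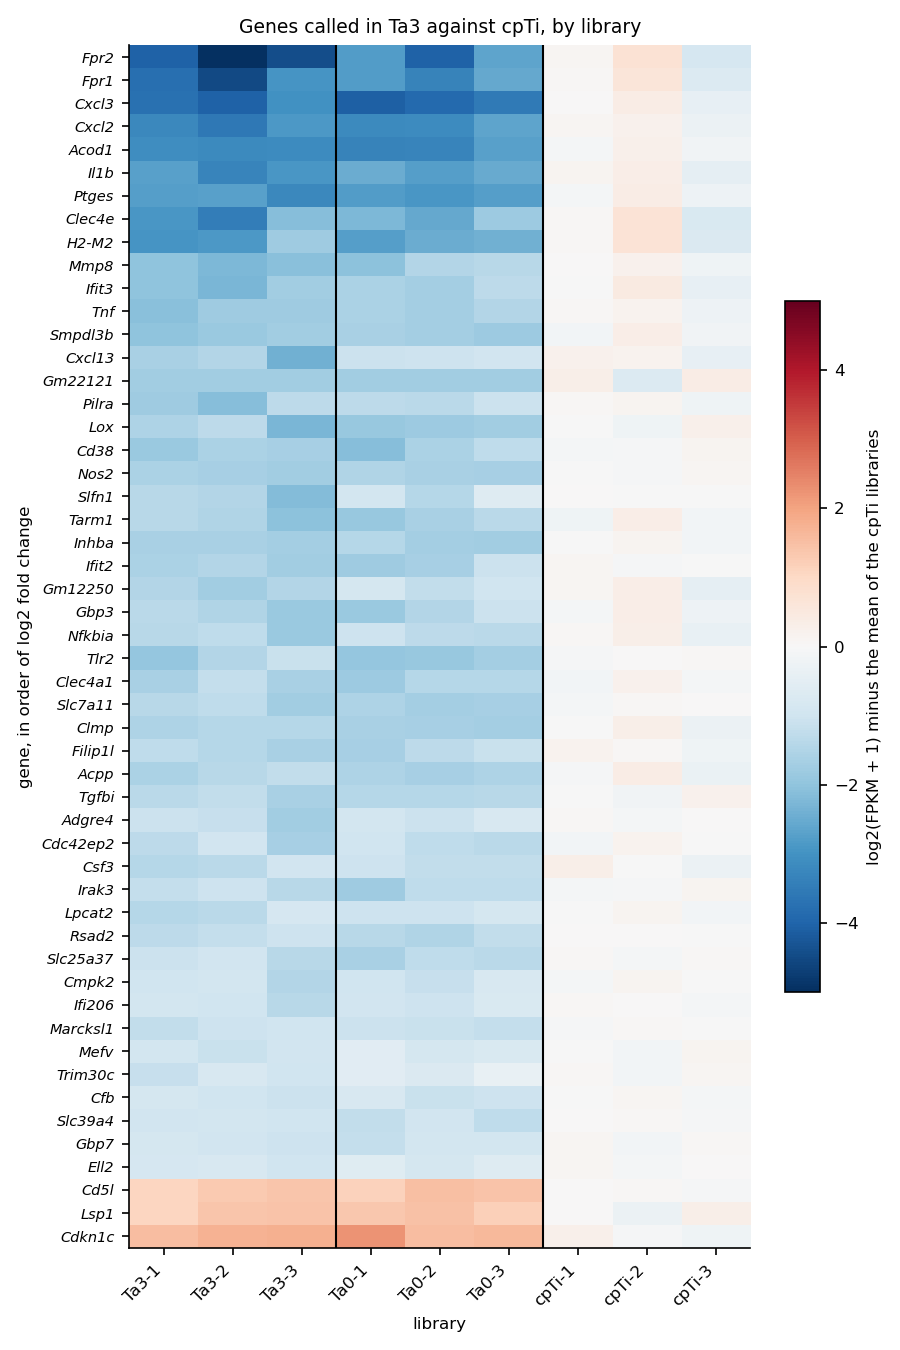
Log2(FPKM + 1) minus the mean of the cpTi libraries (colour, blue lower and red higher) for the 52 called genes (rows, in order of log2 fold change) in the 9 libraries (columns). The Ta3 columns are blue for the 49 genes that fell and red for Cd5l, Lsp1 and Cdkn1c.

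Across the fallen genes the depth of the fall and the shape of the cpTi group differed, as the map of called genes by library shows. In 47 of the 52 called genes the Ta3 libraries spanned less than 2-fold in FPKM + 1. Within cpTi, library 2 was the highest in 29 of the 49 fallen genes and library 3 the lowest in 29. In Rsad2, Nos2, Slfn1 and Marcksl1 the cpTi libraries were close together. Apart from the 20 largest falls among protein-coding genes with a mean of at least 5 FPKM on cpTi, the other 29 fallen genes had log2 fold changes between -1.83 and -0.89 and adjusted p between 0.00252 and 0.0491. A total of 19 tested genes passed the filter through the cpTi libraries alone and 7 of them were called, namely Gm22121, Nos2, Tarm1, Adgre4, Csf3, Ifi206 and Slc39a4. None of the 3 that passed through Ta3 alone was called.

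The 3 genes that rose have unrelated roles. Cdkn1c, which encodes the cell cycle inhibitor p57, measured 17.1, 19.7 and 20.6 FPKM on Ta3, against 6.51, 5.05 and 4.39 FPKM on cpTi. The lowest Ta3 library was above the highest cpTi library by more than 2-fold (log2 fold change 1.68, SE 0.23, adjusted p = 0.0281). Lsp1, an actin-binding protein of leukocytes, measured 38, 46.8 and 47.9 FPKM on Ta3, against 17.5, 13.8 and 21.4 FPKM on cpTi (log2 fold change 1.30, SE 0.21, adjusted p = 0.0463). Cd5l, a secreted scavenger-receptor protein that macrophages make and that protects them from apoptosis, measured 26.2, 31 and 32.9 FPKM on Ta3, against 12, 12.3 and 11.2 FPKM on cpTi (log2 fold change 1.27, SE 0.17, adjusted p = 0.0301). Each was the only call in its list: 33 cell cycle genes, 33 focal adhesion and actin genes and 17 scavenger and efferocytosis receptors, with medians of 0.08, 0.19 and 0.17. With a library left out, Cdkn1c and Cd5l passed in 1 of 9 refits, without Ta0 library 1, and Lsp1 in none. The highest adjusted p were 0.133 for Cdkn1c without cpTi library 2, and 0.224 for Cd5l and 0.293 for Lsp1 without cpTi library 1.

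**Figure D4:**
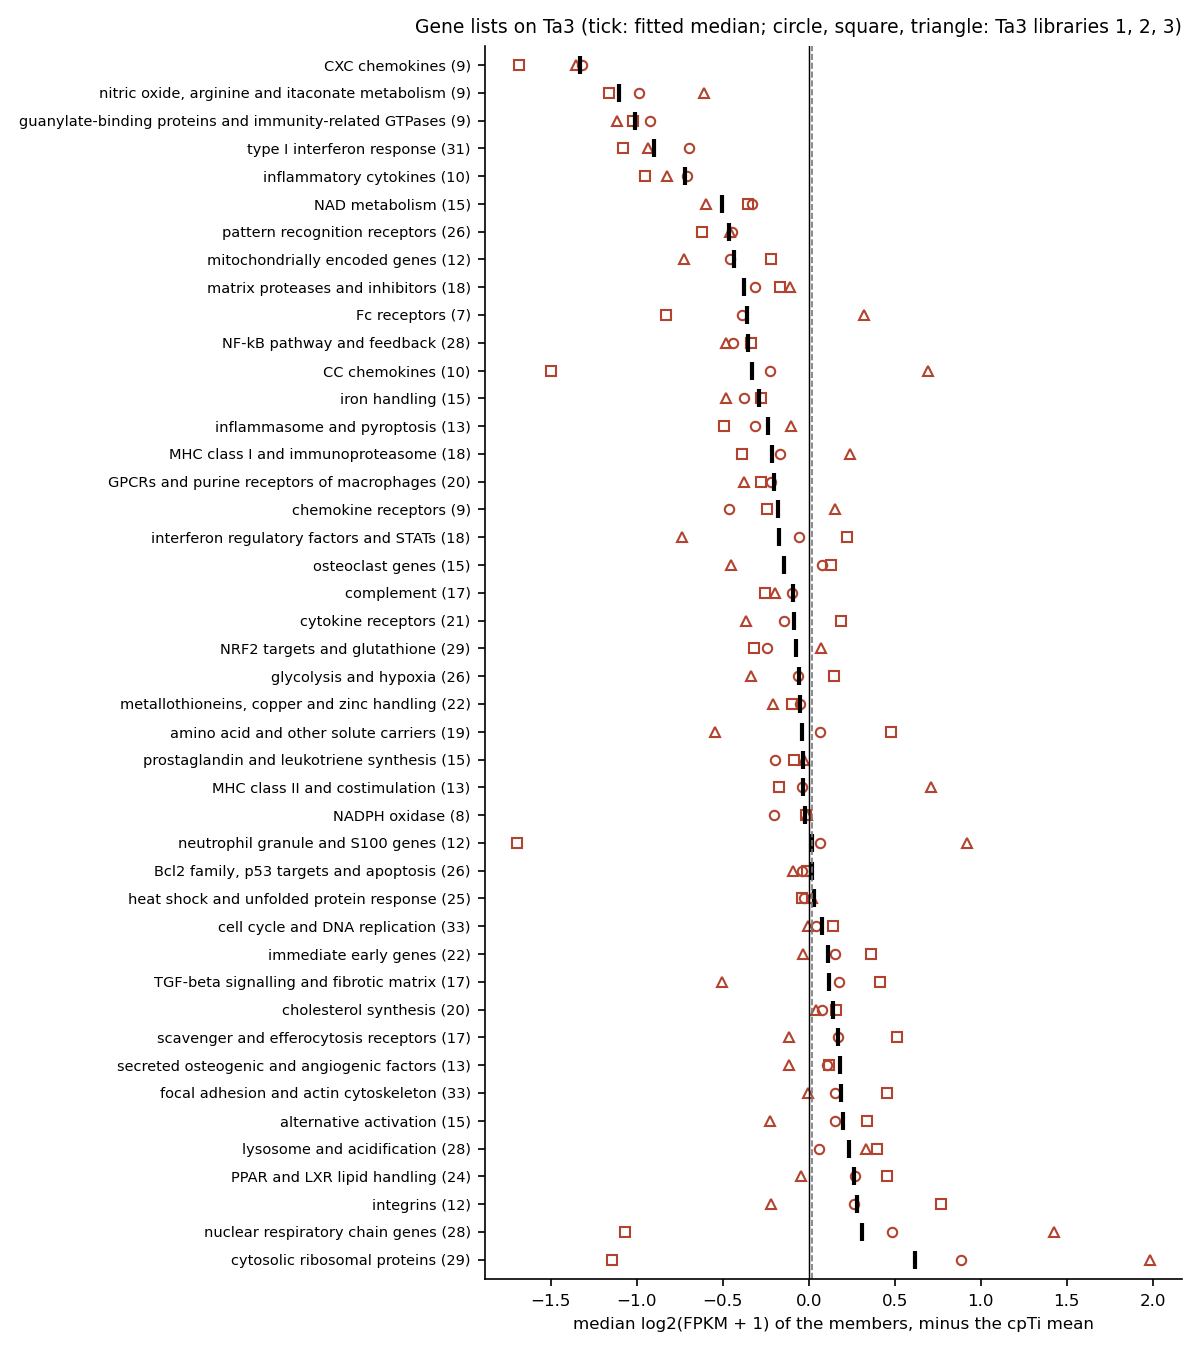
Median log2(FPKM + 1) of the tested members of 44 gene lists, minus the mean of the cpTi libraries (horizontal axis), with the number of tested members in brackets. Black ticks are the fitted medians of Ta3 minus cpTi, open circles, squares and triangles are Ta3 libraries 1, 2 and 3, and the dashed line is the median over all tested genes, 0.02. The CXC chemokines are lowest at -1.33 (-1.47 without Ppbp) and the ribosomal proteins highest at 0.61, where the 3 libraries are far apart.

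Of 44 gene lists, 17 held a fallen member, 3 a risen member and 24 none that was called. The lists with the highest median held no call: 29 cytosolic ribosomal protein genes had 0.61, and 28 nuclear genes of the respiratory chain had 0.31. Their Ta3 libraries lay on both sides of cpTi, with median deviations of 0.88, -1.14 and 1.98 for the ribosomal genes, and without Ta3 library 3 the 2 medians turned to -0.22 and -0.27. The mitochondrially encoded genes, by contrast, had negative log2 fold changes in 12 of 12 tested members (47.3% over all tested genes), with a median of -0.43 and none called. As a share of reads, 13 mitochondrial coding genes took 0.951% ± 0.187 on Ta3 and 1.73% ± 0.351 on cpTi (SD, n = 3 each), without overlap (exact permutation test, two-sided p = 0.1, the smallest that 3 against 3 allows). A set of 28 genes of the lysosome and its acidification had a median of 0.23, and none was called. Of them, 22 were above 0 and 6 below, where 47.3% of all tested genes lay below. Every Ta3 library was above every cpTi library in 6 of the 28, against 3.47% of all tested genes, and below in 0.

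**Figure D5:**
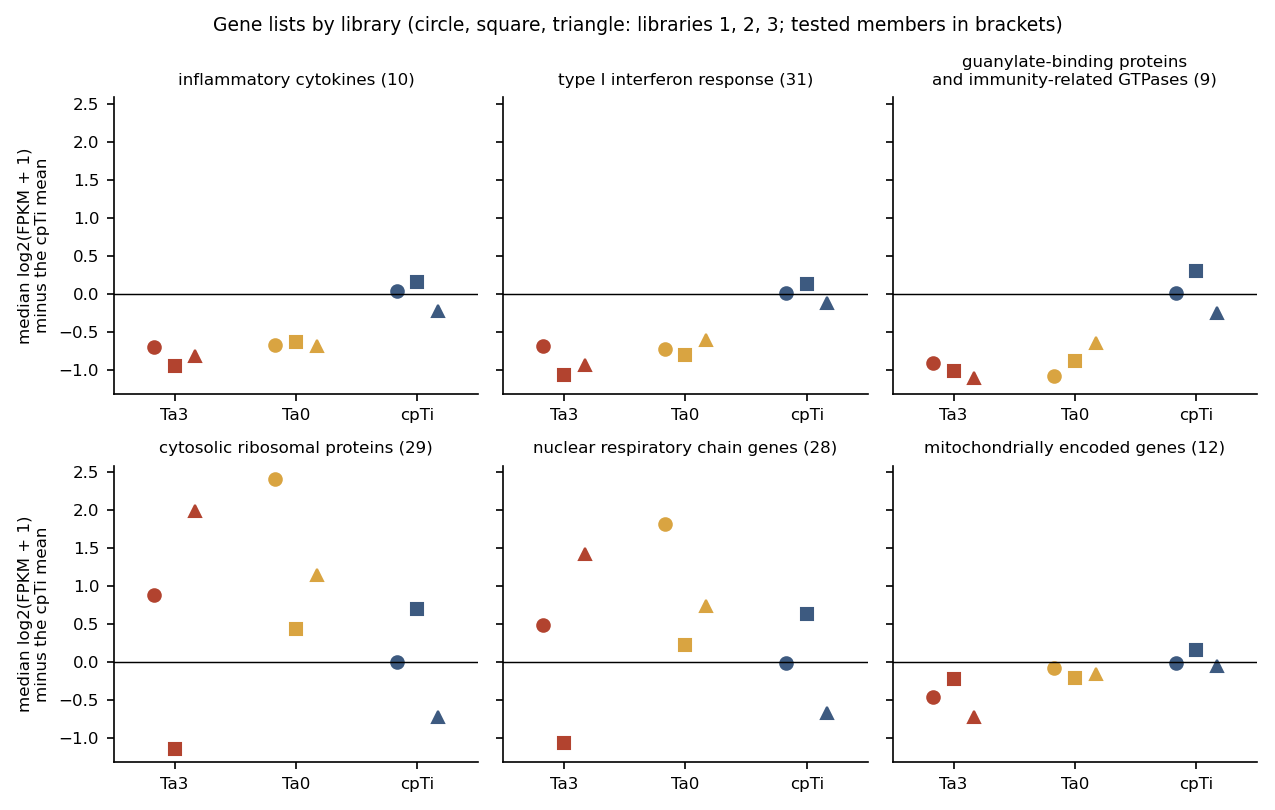
Median log2(FPKM + 1) of 6 gene lists in each library of Ta3, Ta0 and cpTi, minus the mean of the cpTi libraries (vertical axis, shared). Circles, squares and triangles are libraries 1, 2 and 3. In the cytokine, interferon and GTPase lists the 3 Ta3 libraries lie together below all cpTi libraries; in the ribosomal and respiratory lists they spread over both sides.

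No gene of alternative activation or macrophage identity was called. Mrc1, the mannose receptor, had 14.5, 15 and 7.15 FPKM on Ta3 and 9.58, 6.73 and 15.4 FPKM on cpTi (adjusted p = 0.96), and Pparg, a nuclear receptor of lipid handling, had 19.5, 18.7 and 18.7 FPKM on Ta3 and 12.4, 12.4 and 11.2 FPKM on cpTi without overlap (log2 fold change 0.62, adjusted p = 0.158). The costimulatory ligand Cd86 had 5.17, 3.62 and 9.03 FPKM on Ta3 and 10.6, 12.9 and 7.87 FPKM on cpTi (adjusted p = 0.624). Adgre1, which encodes F4/80, had 78.6, 93.3 and 91.9 FPKM on Ta3 and 149, 163 and 161 FPKM on cpTi, without overlap (log2 fold change -0.84, adjusted p = 0.245). Itgax, the integrin CD11c, had 23.2, 30.9 and 13.5 FPKM on Ta3 and 5.76, 2.95 and 12.2 FPKM on cpTi (log2 fold change 1.66, adjusted p = 0.282). Acp5 and Spp1, which osteoclasts also express, had log2 fold changes of -0.85 and 0.19 (adjusted p = 0.443 and 0.979).

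Beside Cxcl1 and Clec4n, the not-called genes with the largest differences (protein coding, at least 5 FPKM in the higher group, no overlap) were Stfa3, a stefin that inhibits cysteine proteases, Hp, the haemoglobin-binding protein haptoglobin, and Bex1. Stfa3 had 2.89, 0.337 and 6.7 FPKM on Ta3 and 17.2, 28.8 and 10.5 FPKM on cpTi (log2 fold change -2.43, adjusted p = 0.331), and Hp had 38.7, 22.7 and 81.2 FPKM on Ta3 and 201, 299 and 152 FPKM on cpTi (log2 fold change -2.30, adjusted p = 0.109). Bex1 had 42.5, 20.6 and 91.5 FPKM on Ta3 and 10.6, 10.4 and 8.24 FPKM on cpTi (log2 fold change 2.05, adjusted p = 0.282). In these 3 genes Ta3 library 3 was the highest and Ta3 library 2 the lowest of their group, the order that the ribosomal share of reads also had. Whether that share plays a part in the spread was not tested.

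The glass without tantalum gave a further reading of the same genes. Comparing Ta3 with Ta0, no gene of 10858 passed (0%). Without adjustment 462 genes had a p under 0.05, and the lowest adjusted p was 0.846. limma's voom on rebuilt reads also called none. Acod1, as a leading gene, had 9.45, 8.87 and 9.17 FPKM on Ta3, 7.94, 8.12 and 12.5 FPKM on Ta0 and 84, 107 and 78.6 FPKM on cpTi, and Ta3 minus Ta0 was -0.02 (SE 0.21) on the log2 scale. The widest gap between the glasses among the 52 called genes was in Fpr2, with 7.77, 3.29 and 5.68 FPKM on Ta3, 19.6, 7.77 and 22.3 FPKM on Ta0 and 152, 239 and 79.1 FPKM on cpTi, and Ta3 minus Ta0 was -1.36 (SE 0.50, adjusted p = 0.846). Cd5l, among the risen genes, had 26.2, 31 and 32.9 FPKM on Ta3, 27.3, 35.5 and 33.6 FPKM on Ta0 and 12, 12.3 and 11.2 FPKM on cpTi, with Ta3 minus Ta0 at -0.09 (SE 0.17). In all 49 fallen genes every Ta0 library was below every cpTi library, and 35 of the 52 called genes were also called in Ta0 against cpTi. Both glasses are set against the same 3 cpTi libraries, so their comparisons with titanium are not independent. The 52 genes were picked with these cpTi libraries, so the counts are no separate support. The genes with the smallest unadjusted p between the glasses were the gene models Gm12854, Gm6180, Gm3756 and Gm12696 and the adaptor gene Stap1, which had 5.35, 3.77 and 5.23 FPKM on Ta3 and 11.3, 8.42 and 11.4 FPKM on Ta0 (log2 difference -0.97, adjusted p = 0.846).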

How the data were processed

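FPKM of 54532 genes in 9 libraries were deposited by the authors in 1 table, with gene lengths. Per the labels, polyA RNA was used, with TRIzol extraction and a NEBNext Ultra library kit. The submitters' processing notes name, with no order, DESeq2 1.20.0, featureCounts 1.5.0-p3, HISAT2 2.0.5, CASAVA 1.8 and fastp, and the mouse builds GRCm38 and mm10. A strand setting is not given in the sources used here. FPKM multiplied by gene length gave whole reads for 100% of values within 0.05 reads.

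The log2(FPKM + 1) of all 9 libraries entered limma 3.58.1 (R 4.3.3) with a mean for each of 3 groups and a mean-variance trend, and Benjamini-Hochberg adjustment was made per comparison. The procedure was tested on simulated data. Promoters ran from 250 bases before to 50 after the RefSeq start. Genes named were all that rose, the 20 largest falls among protein-coding genes with a mean of 5 FPKM on cpTi, the other calls, called list members or up to 2 with the smallest p in lists without a call, and a fixed set. Cxcl5, Ppbp, Ifit3b, Gbp6, Il1a, Il18, Csf1, Tlr4, Birc3, Nfkbie, Rela, Nfkb1, Usp18, Isg15, Nlrp3, Casp1, Nampt, Ptgs1 and Ptgs2 were named outside that rule, after their values were seen, and some genes it names are given only within counts. The comparison, the gene lists and the rule were chosen with earlier results of these data known. The word xenograft in the labels was not used.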

Additional observations from a re-analysis of the deposited data

How the results depend on the processing

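The 52 called genes kept their direction in the 20 alternative settings wherever they were tested (30 of them with a mean of at least 5 FPKM, all 52 in the others), but the number of calls depended on the setting. Against 3 higher and 49 lower genes, the counts were 2 and 27 with a pseudocount of 0.1, 1 and 20 with no expression filter, 3 and 25 with a mean of at least 5 FPKM, 0 and 11 with a common FPKM total, 0 and 7 with the Ta3 and cpTi libraries alone, 198 and 385 with each library's slope on gene length as a covariate, 2 and 33 with voom on rebuilt reads, 3 and 49 without the mean-variance trend and 3 and 47 with a robust spread. The covariate kept all 52 calls, and the cause of the added calls was not tested. With it, 6 of 15 NAD, 6 of 29 NRF2 and glutathione, 5 of 15 iron and 9 of 28 NF-kB genes fell. So did 12 of 26 pattern recognition genes, 21 of 31 interferon genes and 8 of 9 GTPases. Over all tested genes, 385 of 10858 fell in this setting. The interferon and GTPase lists hold Ifit3b and Gbp6, which passed the filter through cpTi alone. For these genes a difference was a condition of being tested. The NAD, NRF2, NF-kB and pattern recognition lists each also held 1 rise. Other lists held more rises than falls with the covariate. Among them were 28 lysosome genes (5 rises, 0 falls), 33 focal adhesion and actin genes (5 and 1), 24 lipid handling genes (4 and 1) and 12 integrins (3 and 0). The ribosomal, respiratory chain and mitochondrially encoded lists still held no call. Leaving out a library gave 0 to 2 higher and 8 to 30 lower genes, the fewest without cpTi library 1, and leaving out Ta3 library 3 and Ta0 library 1 together, chosen after seeing the data, gave 1 and 17. A replicate block left 0 higher and 4 lower genes. The deviations of same-numbered Ta3 and cpTi libraries correlated at -0.0257, -0.821 and -0.796. Those of Ta3 library 2 with cpTi library 3 and of Ta3 library 3 with cpTi library 2 correlated at 0.813 and 0.8. With 3 libraries a group and a strong common axis, such values cannot show whether equal numbers shared an animal or a batch. Cxcl2, Acod1 and Ptges passed in all 20 alternatives, and Il1b in the 19 in which it was tested. The comparison of Ta3 with Ta0 gave 0 calls in every alternative in which it was fitted.

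With 3 libraries a group, changes that are small relative to the spread between libraries were not detectable. That spread was wider on Ta3 than on cpTi for the typical gene. Low values are least precise in Ta3 library 3 and Ta0 library 1, where the read scale behind FPKM was smallest. Without another surface or time, the data give no baseline.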

Other observations

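The gene with the highest mean FPKM was Gm23935, listed as a miRNA gene, which ranged from 1707 to 52977 FPKM over the Ta3 libraries and from 6269 to 168586 over the cpTi libraries. Fth1, the ferritin heavy chain, and Lyz2, the macrophage lysozyme, followed. Fth1 had 22800.0, 21039 and 38148 FPKM on Ta3 and 28435, 42024 and 21579 FPKM on cpTi, and Lyz2 had 18932, 8953 and 38583 FPKM on Ta3 and 22116, 28143 and 15280.3 FPKM on cpTi. In both genes the groups overlapped and none of the 3 was called.

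Receptors for metabolites held values close to the threshold. None of 20 tested G protein-coupled and purine receptors of macrophages was called. Leaving out Gpr84, which passed the expression filter through the cpTi libraries alone, 17 of 19 had a negative log2 fold change and 8 had all Ta3 libraries below all cpTi libraries. Over all tested genes these shares were 47.3% and 8.22%. Gpr84, a receptor for medium-chain fatty acids, had 0.408, 0.752 and 0.415 FPKM on Ta3 and 2.36, 1.72 and 3.39 FPKM on cpTi (log2 fold change -1.17, adjusted p = 0.0553), and Hcar2, the receptor for niacin and ketone bodies, had 2.92, 1.59 and 2.23 FPKM on Ta3 and 6.13, 8.45 and 4.92 FPKM on cpTi (log2 fold change -1.20, adjusted p = 0.0854).

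Cybb, the catalytic subunit of the phagocyte NADPH oxidase, had 127, 145 and 99.1 FPKM on Ta3 and 248, 218 and 269.9 FPKM on cpTi, without overlap (log2 fold change -1.0, adjusted p = 0.282), and its partner Ncf1 had 54.2, 66 and 55.4 FPKM on Ta3 and 68.9, 67.9 and 70.2 FPKM on cpTi (log2 fold change -0.24, adjusted p = 0.918). Among MHC class II genes, Cd74, the invariant chain, had 137, 196 and 129 FPKM on Ta3 and 90.3, 76.8 and 110.4 FPKM on cpTi, with all Ta3 libraries above all cpTi libraries (log2 fold change 0.72, adjusted p = 0.569), and Cd274, the inhibitory ligand PD-L1, had 45, 52.1 and 28.2 FPKM on Ta3 and 76.3, 78.7 and 71.1 FPKM on cpTi (log2 fold change -0.88, adjusted p = 0.426). None of these 4 genes was called.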
